A study of Mus musculus with 91 samples.

Results

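The nuclear genes for the 5 complexes of the mitochondrial respiratory chain were examined in single layer 5 pyramidal neurons (L5 Pyrs) of the mouse primary visual cortex. Genes were taken by symbol: Nduf subunits, Sdha to Sdhd, the Uqcr genes, Cyc1, the Cox4 to Cox8 families and the Atp5 genes. Of 34745 rows in the tables, 89 had such a symbol. Of these 89, 4 were pseudogene rows and 1, Cox8c, had no count in any neuron. This left 84 genes: 35 of complex I, 4 of complex II, 9 of complex III, 19 of complex IV and 17 of complex V. Ndufa4 and Ndufa4l2 were placed in complex IV, to which their products belong. The symbol rule also takes in Atp5sl, Atp5s and Cox7a2l, which are not subunits in the strict sense.

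The respiratory chain sits in the inner mitochondrial membrane. Complexes I and II pass electrons from NADH and succinate to ubiquinone, complex III hands them to cytochrome c, and complex IV to oxygen, while complex V, the ATP synthase, uses the proton gradient to make ATP. Most subunits are encoded in the nucleus and imported, and a small core is encoded by mitochondrial DNA; in neurons this system supplies most of the ATP spent on ion pumping and synaptic transmission.

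Each sample was 1 neuron of a wild-type adult mouse, whose soma was drawn into the patch pipette after recording in a slice (Patch-seq) and amplified without molecular identifiers. The 91 neurons carried 1 of 2 labels: 47 Pyr←LP neurons, the type that receives input from the thalamic lateral posterior nucleus, and 44 Pyr←ORBvl neurons, the type that receives input from the ventrolateral orbitofrontal cortex. The label came from a classifier on the hyperpolarization-activated current, not from traced input. No animal was named for any neuron, and the prefix of the neuron's title (17 prefixes, 14 with both types) was the only grouping.

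Total counts per neuron ran from 2410 to 1949000, with a median of 411900 in Pyr←LP and 445000 in Pyr←ORBvl neurons. The median number of genes with a count was 3241 in Pyr←LP and 3980 in Pyr←ORBvl neurons. Snap25 had counts in 91 of 91 neurons and the glutamatergic marker Slc17a7 in 71, whereas Gad1 had counts in 20 and Gad2 in 12. Transcripts of other cells were common: the oligodendrocyte markers were above 0 in 46 of 47 Pyr←LP and 44 of 44 Pyr←ORBvl neurons, with median summed CPM (counts scaled to a total of 1000000) of 1304 and 2135, and the microglial markers in 46 and 44 neurons, with medians of 898 and 1154. Their part in the results was not tested. Pyr←ORBvl neurons 5 and 11, of different prefixes, had nearly the same counts (r = 0.993 over log2 CPM, across genes, against 0.717 for the next pair, and 81.75% against 50.46% of genes found in both). Their chi-square of 3.36 per degree of freedom (22.4 for the next pair) covers counting error of amplified reads only and does not tell whether they are separate neurons; whether they share material was not tested. Both were kept, and comparisons were repeated without neuron 11.

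Some of these genes share their sequence with pseudogenes or other genes, which matters here because only uniquely aligned reads were counted. In GENCODE vM21 (GRCm38), 43 of the 84 genes had no coding window of 50 bases, the read length given for the alignment, in common with a transcript of another gene, 27 shared up to 50% of their windows, 10 shared from 50% to just under 100%, and 4 shared every window: Atp5l, Atp5g2, Ndufb4 and Cox7c. The Methods give reads of 150 bases at sequencing, and with windows of that length 73 genes shared none, 6 up to 50%, Atp5g1 90.7%, and the same 4 genes all. The other gene was not always a pseudogene. Ndufb9, Ndufb8 and Ndufb5 shared 31.4%, 16.7% and 14.5% of their coding windows, with 0% of their transcript windows in a pseudogene. Genes that overlap at the same locus were not told apart. A shared window therefore does not by itself mean that a read has no unique place. Reads were paired, and whether the mate made a pair unique was not examined. Atp5l, which encodes a membrane subunit of the ATP synthase that helps complexes pair up, had 309 coding bases and differed from the transcript model of Atp5l2-ps at 2 of them and from Atp5l-ps1 at 5. The following stretch of 75 coding bases is from Atp5l (chr9:44913248-44920742, GRCm38), with the same bases of Atp5l2-ps (chr11:97768017-97768468) and Atp5l-ps1 (chr7:62476244-62476714), with the differing position in capitals. It is shown because Atp5l and Atp5l2-ps are the same throughout it and Atp5l-ps1 differs at 1 position, so that a read inside it has no unique place.
Atp5l: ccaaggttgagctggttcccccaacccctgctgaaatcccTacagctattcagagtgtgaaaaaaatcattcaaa
Atp5l2-ps: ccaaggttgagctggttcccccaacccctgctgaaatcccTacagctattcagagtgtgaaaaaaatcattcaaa
Atp5l-ps1: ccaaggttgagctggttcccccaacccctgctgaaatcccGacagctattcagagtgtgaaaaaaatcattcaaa

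Counts were low where the sequence was shared throughout. Over all neurons the 4 fully shared genes had 277 counts for Atp5g2, 591 for Atp5l, 737 for Ndufb4 and 1410 for Cox7c, while the 10 genes in the next class had from 3776 to 18615 and the 27 below them from 4480 to 60806. The genes with no shared window spanned 2 to 49417 counts, with the tissue-restricted paralogs at the low end. For Atp5l the excluded row Atp5l2-ps held more counts, 981 in 73 neurons, than the gene itself. Ndufs5, an accessory subunit of complex I with 72.5% of its windows shared, had 3776 counts against 6037 on the pseudogene row BC002163, and Atp5h, a stalk subunit of the ATP synthase, had 9689 against 8286 on Gm10250. The levels of these genes are those of uniquely placed reads, and whether the low counts come from the shared sequence was not tested.

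**Figure D1:**
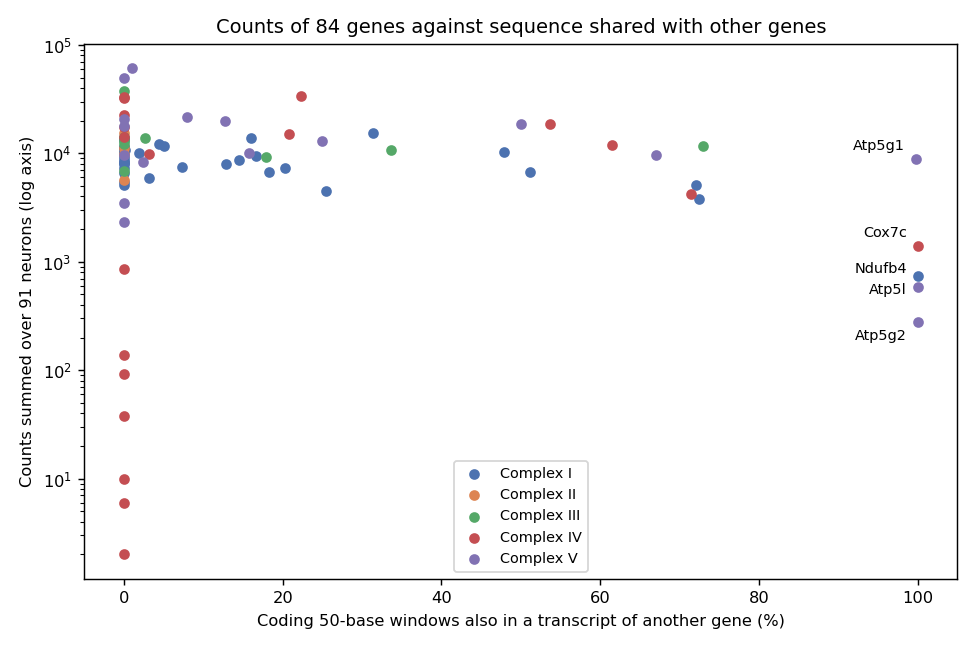
Counts summed over 91 neurons (log axis) against the percent of a gene's coding 50-base windows that also occur in a transcript of another gene; each point is 1 of 84 genes, coloured by complex. Atp5l, Atp5g2, Ndufb4 and Cox7c, at 100%, have 277 to 1410 counts, and Atp5g1 at 99.7% has 8812.

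The respiratory chain was broadly detected. A neuron had counts on 23 to 82 of the 84 genes, with a median of 62. Of the genes, 16 were present in at least 90% of neurons, 13 in under 50% and 6 in under 10%. Cox4i1, which encodes a core-associated subunit of cytochrome c oxidase, was the gene found in all 91 neurons, followed by Cox6c in 90, and by Cox8a and Atp5b in 89 each. The number of these genes found in a neuron followed the number of all genes found (Spearman's rho = 0.851, n = 91 neurons, whose points share library and depth) more closely than the total count (0.318).

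**Figure D2:**
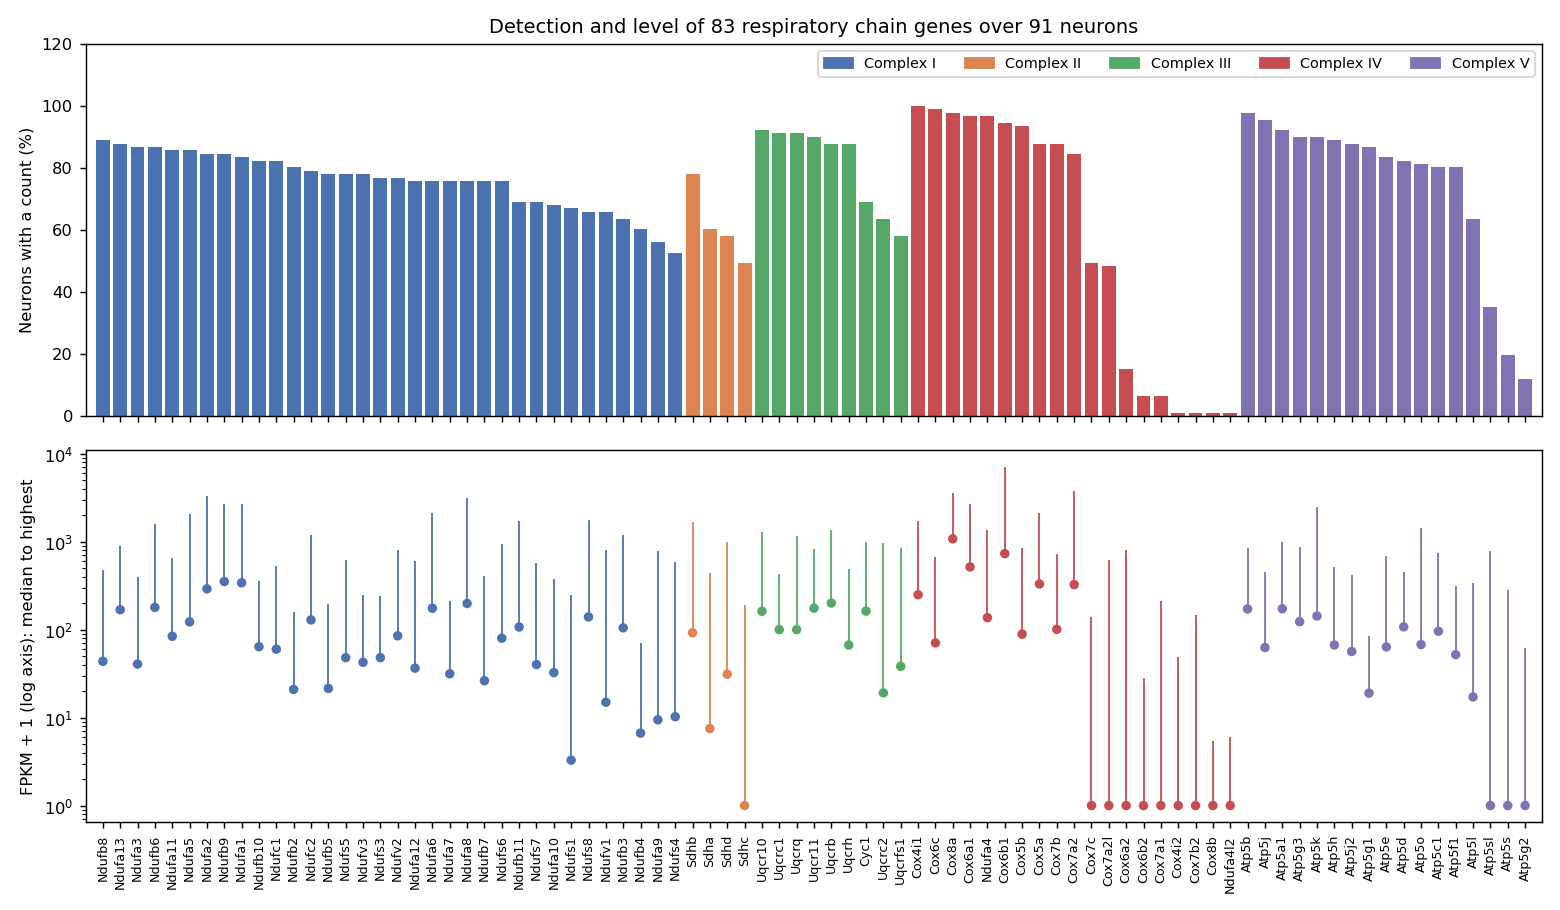
Top, percent of 91 neurons with a count for each of 83 of the 84 genes, grouped and coloured by complex. Bottom, median FPKM + 1 (points) up to the highest neuron (line end) on a log axis; complex IV holds both the highest median, 1073 FPKM for Cox8a, and the 6 genes found in under 10% of neurons.

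Levels between genes were compared on deposited FPKM (fragments scaled for gene length and library total). The 3 highest medians were those of complex IV subunits, though 9 of the 19 genes of that complex had a median of 0. The middle gene of complex IV had 69.5 FPKM, against 98.9 in complex III. Cox8a had a median of 1073 FPKM (lowest 0, highest 3550 over 91 neurons), Cox6b1 728.5 (0 to 7028) and Cox6a1 513.8 (0 to 2686). These are small accessory subunits around the mitochondrially encoded catalytic core. Each of the 3 ranged from 0 to more than 3 times its median, and the ranges overlapped.

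In complex I, the NADH dehydrogenase, the highest medians were those of the accessory subunits Ndufb9 (350.7 FPKM, highest 2642), Ndufa1 (339.1, highest 2645) and Ndufa2 (289.3, highest 3252). Complex I had 35 genes with medians from 2.28 to 350.7 FPKM, and none had a median of 0. The 7 nuclear core subunits, which carry the redox centres, had medians from 2.28 FPKM for Ndufs1 to 138.3 for Ndufs8, and the 28 accessory subunits from 5.66 to 350.7. Ndufs4 was the complex I gene found in the fewest neurons, 48 of 91.

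Complex II, the succinate dehydrogenase, has no mitochondrially encoded subunit. Sdhb, the iron-sulfur subunit, had a median of 91.0 FPKM (0 to 1658) and was found in 71 neurons. Sdhd, a membrane anchor, had 30.1 (0 to 978.5) in 53 neurons, and the flavoprotein Sdha 6.50 (0 to 432.9) in 55. Sdhc, the other anchor, had counts in 45 neurons and a median of 0. In Pyr←LP neurons the medians of Sdha and Sdhd were 0, and in Pyr←ORBvl neurons 50.2 and 83.2 FPKM, with counts in 22 of 47 against 33 of 44 neurons for Sdha and 23 against 30 for Sdhd. The means of Sdhd were 167.8 and 173.8 CPM, and neither gene passed the test described below (unadjusted p = 0.196 for Sdha and 0.905 for Sdhd in edgeR).

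Complex III, the cytochrome bc1 complex, was led by Uqcrb (199.1 FPKM, 0 to 1339), Uqcr11 (174.0, 0 to 817.7) and Cyc1, the cytochrome c1 (161.1, 0 to 980.8). The Rieske iron-sulfur protein gene Uqcrfs1 was found in 53 neurons, the fewest in this complex. In complex V the F1 head subunits Atp5a1 (171.6 FPKM, 0 to 991.3) and Atp5b (170.4, 0 to 839.7) stood above Atp5k (141.5, 0 to 2485), a small membrane subunit. Atp5b was the gene with most counts among the 84 in 39 of 91 neurons, and Atp5a1 in 19.

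The order within complexes depended on the length behind the FPKM. FPKM divided by counts gave a length that was the same in every neuron and a median of 2.11 times, and up to 16.4 times, the length of the principal coding transcript in GENCODE vM21, which for Atp5g1 was 596 bases against 9797. Per kilobase of that transcript, Cox6a1 (1072 CPM per kilobase) rose from the third place to the first, Cox8a (1063) went from the first to the second and Cox6b1 (595.3) from the second to the seventh. Cox4i1 rose from the ninth place to the third (885.8), Ndufa4 from 22 to 4 (802.7) and Cox6c from 38 to 5 (684.6). Atp5b was then at 615.2 and Atp5g3, which encodes the rotating c subunit, at 500.1. Ndufa11 and Ndufc1 took the first places in complex I (404.7 and 376.2) and Uqcrq that of complex III (588.2).

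In most paralog sets nearly all counts fell on 1 gene; these are shares of counts, not scaled for length. Cox4i1 held 99.97% of the counts of its pair, and Cox4i2, whose product is known from hypoxic tissue, had 10 counts in 1 neuron. Cox8a held 99.99%, with 2 counts for the muscle form Cox8b, and Ndufa4 held 99.97%, with 6 counts for Ndufa4l2 in 1 neuron. The testis forms Cox6b2 (138 counts in 6 neurons) and Cox7b2 (93 counts in 1 neuron) and the muscle form Cox7a1 (38 counts in 6 neurons) held 0.604%, 0.934% and 0.207% of the counts of their sets. Cox7a2 held 76.98% of the counts of its set in 77 neurons, and Cox7a2l, whose product is a supercomplex factor, 22.8% in 44.

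The c subunit of the ATP synthase is encoded by 3 genes whose mature proteins are the same. Atp5g3 held 69.3% of the counts of the 3, Atp5g1 29.7% and Atp5g2 0.935%, with counts in 82, 79 and 11 of 91 neurons. Their last 75 coding bases are shown with the positions that are not the same in all 3 in capitals, because it is these differences, 20 in the stretch, that tell their reads apart (Atp5g1 on chr11:96072793-96075694, Atp5g2 on chr15:102662868-102671047, Atp5g3 on chr2:73908447-73912464).
Atp5g1: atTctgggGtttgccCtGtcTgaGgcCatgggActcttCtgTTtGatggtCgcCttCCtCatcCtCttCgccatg
Atp5g2: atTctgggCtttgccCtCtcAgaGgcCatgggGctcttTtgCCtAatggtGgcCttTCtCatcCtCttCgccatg
Atp5g3: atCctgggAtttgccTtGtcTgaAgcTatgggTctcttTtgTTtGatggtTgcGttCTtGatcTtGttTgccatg
Atp5g3 had no coding window in common with another gene, whereas Atp5g1 had 99.7% and Atp5g2 100% in common, so the shares of the 3 genes are shares of the reads that could be placed.

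Cox6a2, the heart and muscle form of Cox6a1, was the paralog with a second pattern. It had 855 counts in 14 neurons, 6 Pyr←LP and 8 Pyr←ORBvl. The highest levels were 546.4 CPM in Pyr←ORBvl neuron 3 and 481.5 CPM in Pyr←LP neuron 6, and the next was 127.0 CPM in Pyr←ORBvl neuron 14. Neurons 3 and 6 also carried transcripts of GABAergic cells. Their summed log2(count + 1) over Slc32a1, Gad1 and Gad2 was 14.8 and 12.4, above the limit of 7 that the study's Methods set. Pvalb, a marker of fast-spiking interneurons, was at 1612 and 459.8 CPM. The 4 listed markers of these interneurons were Pvalb, Kcnc1, Kcnc2 and Syt2. Their highest sum in a Pyr←ORBvl neuron was also 1612 CPM, so the others added almost nothing in neuron 3. Levels of the others in neuron 6 are not reported here. Across the 8 neurons above that limit Cox6a2 had counts in 4 and 683 counts in all, and across the other 83 neurons counts in 10 and 172 counts in all; the median depth of the former was 708048 counts and that of the latter 411884. Cox6a1 was found in 8 of 8 and 80 of 83.

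Over the whole set of genes these 8 neurons had a wide range and a higher median share than the other neurons. The share of counts on the 84 genes was between 1.18% and 6.16% in the 8 neurons above the limit, with a median of 3.15% (3 Pyr←LP and 5 Pyr←ORBvl), and between 0.764% and 5.03% in the other 83, with a median of 1.95%. The lowest of the 8 were Pyr←ORBvl neurons 5 and 11, the near-identical pair, at 1.18% and 1.24%. Pyr←ORBvl neuron 3 had the highest share of all, 6.16% of 1032153 counts, with 75 of the 84 genes present and no gene over 4.31% of it. The lowest share was 0.764%, in Pyr←LP neuron 23. What these neurons are beyond their label was not tested.

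The shares of the complexes moved together from neuron to neuron. Complex I and complex IV had a Spearman's rho of 0.795 over 91 neurons (0.709 in Pyr←LP and 0.853 in Pyr←ORBvl neurons), complex I and III 0.713, and complex I and V 0.620. Complex II, at a median of 0.0789% of counts, had lower values with the rest, from 0.225 to 0.332. These shares have the neuron's total as a common denominator and are a description. The share on the 13 mitochondrially encoded subunits, 0.166% to 25.03% with a median of 3.34%, had a rho of 0.392 with the share on the 84 nuclear genes.

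The comparison of the types asked whether the expression of this machinery differed between L5 Pyrs with thalamic and those with cortical top-down input. As levels per neuron, the share of counts on the 84 genes had a median of 1.76% in Pyr←LP (0.764% to 4.18%, n = 47) and 2.11% in Pyr←ORBvl neurons (1.07% to 6.16%, n = 44). The ranges overlapped over most of their length. Within prefixes that held both types, the mean share was higher in Pyr←ORBvl neurons in 11 of 14 prefixes. In prefixes 727, 823, 826, 914 and 919 the mean of at least 1 type was a single neuron. After thinning to 100000 counts the medians were 1.62% and 2.11% (38 and 34 neurons), and without the mitochondrially encoded genes in the total 1.78% and 2.22%.

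**Figure D3:**
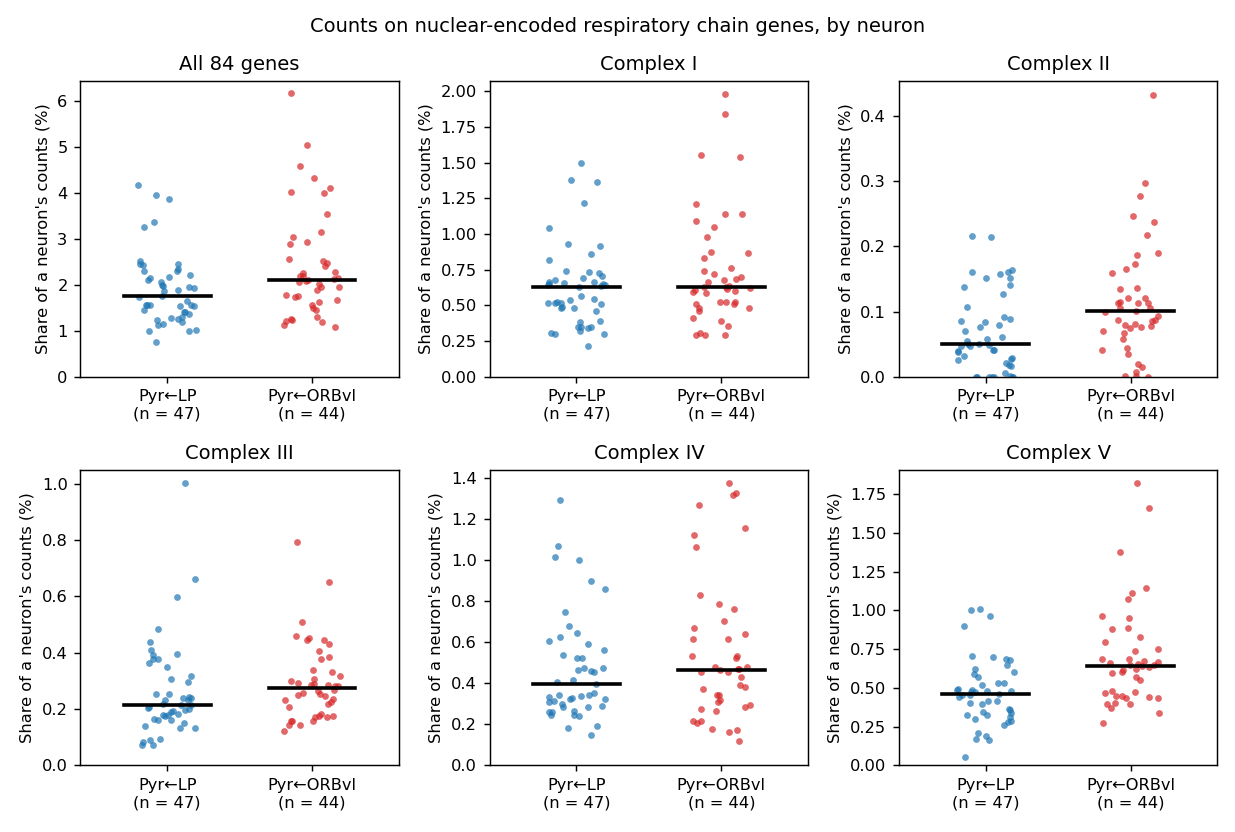
Percent of a neuron's counts on all 84 genes and on the genes of each complex; each point is 1 neuron (47 Pyr←LP, 44 Pyr←ORBvl) and the line is the median. The medians of complex V are 0.459% and 0.643%, those of complex I 0.631% and 0.629%, and the points of both types overlap in every panel.

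By complex, complex V had medians of 0.459% in Pyr←LP (0.0526% to 1.01%) and 0.643% in Pyr←ORBvl neurons (0.271% to 1.82%), with the mean higher in Pyr←ORBvl in 13 of 14 prefixes. Complex II had 0.0495% and 0.1001%, and 11 of 14 prefixes. Complex I had 0.631% and 0.629%, and 11 of 14 prefixes, with means of 0.635% and 0.748% and thinned medians of 0.552% and 0.620%. Complex III had 0.215% and 0.275%, with 7 of 14, and complex IV 0.397% and 0.467%, with 8 of 14. The share on the mitochondrially encoded subunits had medians of 3.34% and 3.29%. No test was made of any of these shares.

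**Figure D4:**
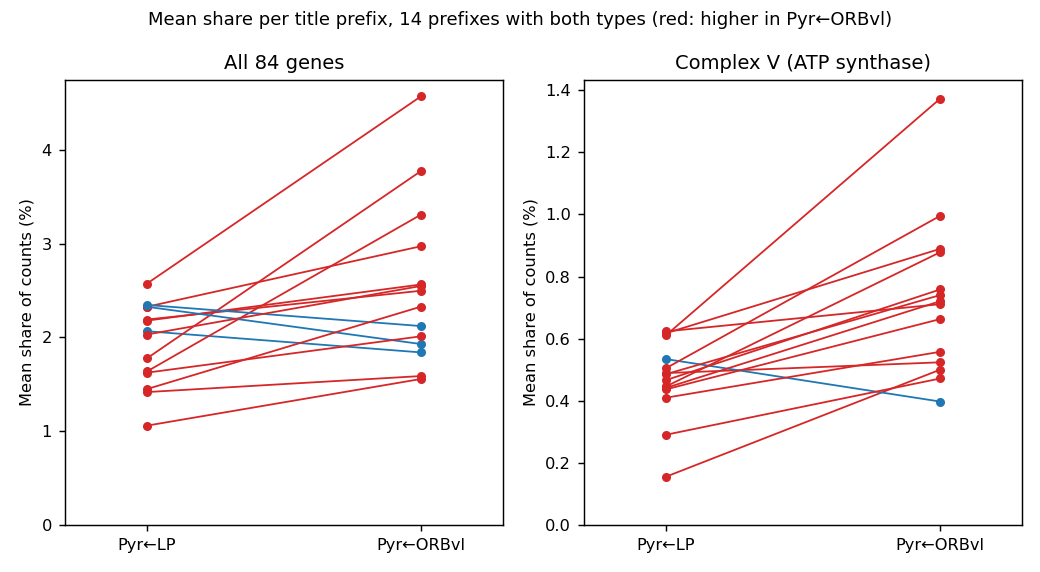
Mean percent of counts on all 84 genes (left) and on complex V (right) for each of the 14 title prefixes with both types; a line joins the Pyr←LP and Pyr←ORBvl means of a prefix, red where the latter is higher. The mean is higher in Pyr←ORBvl in 11 prefixes for all genes and in 13 for complex V. In prefixes 727, 823, 826, 914 and 919 the mean of at least 1 type is a single neuron.

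Gene by gene, no member of the chain was called. Counts were summed per prefix and type (16 Pyr←LP and 15 Pyr←ORBvl sums) and tested with edgeR's quasi-likelihood test. The test covered the 8267 genes that reached 5 counts in 10 or more neurons, and a gene was called where its Benjamini-Hochberg adjusted p was under 0.05 and it differed more than 2-fold. Of the 84 genes 77 passed the filter. Across all genes 23, or 0.278%, were called, and 0 of the 77. At an unadjusted p under 0.05 there were 357 genes, or 4.32%, and 1 of the 77; 198 genes, or 2.4%, were under it and higher in Pyr←ORBvl. DESeq2 on the same sums called 0.762% of all genes and 0 of the 77, and 6.88% and 2 of the 77 had an unadjusted p under 0.05. With single neurons as samples edgeR called 1.57% of genes and 0 members (9.56% and 0 members at an unadjusted p under 0.05), and DESeq2 0.823% and 0 members (6.5% and 7 members, all higher in Pyr←ORBvl). Without the filter on low counts 21.3% of genes and 3 of 84 members were called, each of the 3 found in 1 neuron, and 28.6% and 3 of 84 had an unadjusted p under 0.05. These p-values measure the spread between sums of neurons whose animals are not known.

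Among the genes higher in Pyr←ORBvl those with the smallest p described here were 3 of the ATP synthase and a core subunit of complex I. Atp5j, coupling factor 6 of the stalk, had 137.9 to 748.7 CPM (median 253.1) in Pyr←LP and 202.5 to 1305 CPM (median 538.8) in Pyr←ORBvl sums, a log2 fold change of 0.81 ± 0.50. Atp5c1, the gamma subunit of the rotor, had medians of 282.8 and 592.3 CPM, with 0 to 770.8 and 14.3 to 1143, and a log2 fold change of 1.03 ± 0.63. Atp5b, the catalytic beta subunit, had medians of 946.8 and 1343 CPM, with 6.81 to 2028 and 233.0 to 3543, and a log2 fold change of 0.67 ± 0.44. Ndufv1, the subunit that binds NADH, had medians of 123.0 and 272.7 CPM, with 0 to 368.7 and 0.785 to 793.2, and a log2 fold change of 1.08 ± 0.75. In each of these 4 the lowest and the highest sum were both in the order Pyr←ORBvl above Pyr←LP while the groups overlapped, and the unadjusted p ran from 0.105 to 0.155, with an adjusted p = 0.9992 for each in edgeR.

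The genes with the smallest p among those higher in Pyr←LP were nearer to no difference. Ndufb6, an accessory membrane subunit of complex I, had medians of 293.0 CPM in Pyr←LP (0.973 to 953.1) and 178.0 in Pyr←ORBvl sums (1.91 to 593.0), a log2 fold change of -0.47 ± 0.66. The next were Ndufa9 (-0.37 ± 0.71), Uqcrc2, a core protein of complex III (-0.38 ± 0.84), Ndufa10 (-0.26 ± 0.77) and Cox7c (-0.22 ± 1.14), with unadjusted p from 0.479 to 0.846. The types overlapped for all 5 genes, and for Uqcrc2 4 of 16 Pyr←LP sums were at 0.

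Direction was less even than the calls. The log2 fold change was above 0, higher in Pyr←ORBvl, in 65 of 77 members and in 52.7% of all tested genes, and its median was 0.38 over the 77 and 0.06 over all. The median standard error of a single member was 0.69, and the members come from the same sums and are not independent. By complex the counts above 0 were 27 of 35 in complex I (median 0.29), 3 of 4 in complex II (0.19), 8 of 9 in complex III (0.25), 12 of 13 in complex IV (0.39) and 15 of 16 in complex V (0.68). The 7 core subunits of complex I were all above 0, as were the 5 subunits of the F1 head of the ATP synthase, from 0.59 to 1.03, whereas 20 of 28 accessory subunits of complex I were. These 2 groupings were made after the values were seen. The 7 genes outside the test were Atp5g2, Ndufa4l2, Cox7a1, Cox8b, Cox7b2, Cox4i2 and Cox6b2.

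**Figure D5:**
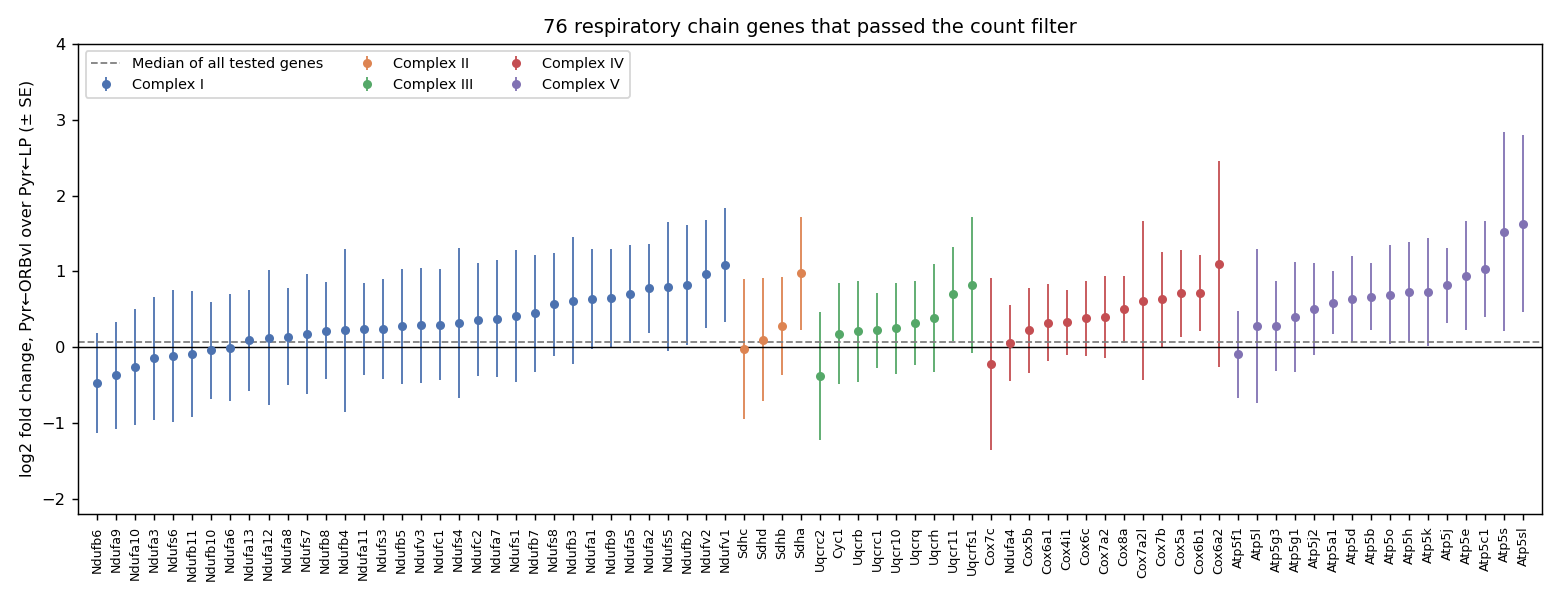
Log2 fold change, Pyr←ORBvl over Pyr←LP, with its SE (edgeR, sums per prefix and type) for 76 of the 77 genes that passed the filter, ordered within complexes; the dashed line is the median of all 8267 tested genes, 0.06. Of the points 64 lie above 0, and none was called.

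The types also differed in other measures, and the number of members above 0 varied with the neurons and the fit used. Pyr←ORBvl neurons had more genes with a count, and the median number of the 84 genes present was 65 in them and 58 in Pyr←LP neurons, or 64 and 58 at 100000 counts. The share of counts on the 84 genes did not rise with the number of genes found. Its Spearman's rho with that number was -0.131 over 91 neurons (-0.099 in Pyr←LP and -0.265 in Pyr←ORBvl neurons), and with the total count -0.266. With the 8 neurons above the GABAergic limit left out, 62 of 76 members tested were above 0 with a median of 0.31, without Pyr←ORBvl neuron 11 it was 65 of 77 with 0.36, and without the prefix of Pyr←ORBvl neuron 15 it was 56 of 77 with 0.28. Without prefix 914 the median was 0.25. With DESeq2 on single neurons it was 51 of 77, and the median of 0.13 was close to that of all genes, 0.11.

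Other genes of the pathway were read in the same fit. The 13 mitochondrially encoded subunits all had a log2 fold change above 0, from 0.16 to 0.45, against 52.7% of all tested genes above 0. They come from the same sums and are not independent. Per neuron their medians went both ways: mt-Cytb had 6362 CPM in Pyr←LP and 5071 in Pyr←ORBvl neurons, and mt-Nd1 3322 and 3715. Their summed share had medians of 3.34% and 3.29%. Of the genes for cytochrome c, ADP/ATP exchange and the outer membrane channels 7 of 8 were above 0, and of the tricarboxylic acid cycle 11 of 15. In these 3 lists 0 genes were under an unadjusted p of 0.05 in edgeR. The regulators of mitochondrial genes were sparse, with 5 of 11 tested: Ppargc1a, the coactivator of mitochondrial biogenesis, was found in 38 neurons and the transcription factor Nrf1 in 6. They went the other way, with 1 of 5 above 0 and 4 below. Their median log2 fold change was -1.13, with a median standard error of 1.33, and 0 were under an unadjusted p of 0.05 in edgeR.

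Of the 44 assembly factors 37 were tested, 30 were above 0 and 1 was called. Over all tested genes 52.7% were above 0 and 0.278% were called. The median log2 fold change of the 37 was 0.73, with a median standard error of 1.24. The 1 called was Acad9, which encodes a factor needed to build complex I. It had counts in 6 of 47 Pyr←LP neurons, with no more than 14 counts in any. In Pyr←ORBvl it had counts in 12 of 44 neurons, of which 9 had at least 20 counts, spread over 7 prefixes. The filter asked for 5 counts in 10 neurons, which the 6 Pyr←LP neurons could not meet. Its place in the test thus rested on its counts in Pyr←ORBvl, the type where it was higher, and the call is not independent of that. Its level was 0 in 11 of 16 Pyr←LP sums (highest 8.27 CPM) and in 6 of 15 Pyr←ORBvl sums (median 43.02, highest 467.4). The log2 fold change was 6.54 ± 1.52 with an adjusted p = 0.0265 in edgeR, higher in Pyr←ORBvl, and since most Pyr←LP sums were at 0 its size depends on the prior count of the fit. Of 31 alternatives, 5 did not test it because it failed their filter (filterByExpr, the study's exclusion rule on counts, and without prefix 830, 913 or that of Pyr←ORBvl neuron 11). The call held in 17 of the other 26 and was lost with the prefix as a block, with limma, and without any of prefixes 831 and 915 (adjusted p = 0.0514 and 0.102 in edgeR) or the prefixes of Pyr←ORBvl neurons 5 and 15 (0.0615 and 0.0632).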

How the data were processed

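Patch-seq libraries of 91 L5 Pyrs were made by the authors with a Smart-seq2-based kit and sequenced from paired ends (150 bases). Per the Methods and the submitters' processing notes, read pairs of 50 bases were aligned to GRCm38 with STAR 2.5.3, PCR duplicates were removed and uniquely aligned reads were counted on RefSeq genes. The authors deposited raw counts per gene and, in a second table, FPKM; how the FPKM were computed is not given in the sources used here. FPKM equalled the count divided by the neuron's total and by 1 length per gene. Of the rows, 126 share a symbol with another row.

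The genes, lists and named genes were chosen with earlier results of these data known. Named were the 3 genes with the highest median FPKM in each complex, the paralog sets, any gene called, the 5 with the smallest p in each direction and the gene found in the fewest neurons of each complex; 1 of these is not reported here. Groups came from the deposited cell subtype label. All 91 neurons were used; the main test took counts summed per title prefix and type, because the labels name no animal and neurons of a mouse are not independent. Some titles write the prefix with a hyphen, which was ignored, so that spellings with and without it counted as the same prefix. The test was the quasi-likelihood fit of edgeR 4.0.16 on deposited counts (R 4.3.3, TMM factors, robust option). SEs were obtained from the log2 fold change over the root of the F statistic, and CPM of sums use TMM totals. Alternatives were DESeq2 1.42.0, limma 3.58.1, single neurons, other gene filters, both readings of the exclusion rule of the Methods, each prefix left out, and, chosen after seeing the data, the fit without Pyr←ORBvl neuron 11, lengths from GENCODE vM21 and shared windows of 150 bases. For shared sequence, every 50-base window of the principal coding transcript (the shortest where several tied) was looked up on both strands in all GENCODE vM21 transcripts; gene positions are from RefSeq, GRCm38.p6, where 84 of 84 genes matched, 81 by their own symbol and the rest by a synonym. Python 3.11.15, numpy 2.4.6, pandas 2.3.3, scipy 1.17.1 and matplotlib 3.10.9 were used.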

Additional observations from a re-analysis of the deposited data

Results flagged for a closer look

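Rows left out of the 84 genes carried counts above the limit of 3 that a count of 0 allows. The pseudogene rows of Atp5l held 981 counts (Atp5l2-ps, in 73 of 91 neurons), 371 counts (Atp5l-ps1, in 56) and 5 counts (Atp5l-ps2, in 5), against 591 counts in 58 neurons for Atp5l itself. The row Atp5k-ps2 held 83 counts in 41 neurons, against 8321 for Atp5k, whose coding windows are shared at 2.44%. From which locus these reads came was not tested.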

How the results depend on the processing

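Under all but 1 alternative 0 members were called; without a filter on low counts there were 3 (Cox4i2, Cox7b2 and Ndufa4l2, each found in 1 neuron), among 3985 genes called of 18674. Genes called across the whole table, 23 in the main test, were 63 with DESeq2, 2 with filterByExpr, 130 and 68 for single neurons with edgeR and DESeq2, 1 with the prefix as a replicate block, 4 and 3 with limma on CPM and 6 and 6 on FPKM (pseudocounts of 1 and 0.1), and 10 to 25 with each prefix left out. Members above 0 were 51 to 70 over the alternatives, with the lowest for DESeq2 on single neurons and 56 without the prefix of Pyr←ORBvl neuron 15 (56 to 69 with each prefix left out, where the median was 0.25 to 0.43); their median log2 fold change stayed above 0, was lowest with DESeq2 on single neurons (0.13, against 0.11 over all genes), and the median of all genes rose to 0.31 with the block and up to 0.40 with limma. Direction turned for Uqcrc2 (0.80 with the block, and with limma 0.53 and 1.06 on CPM and 0.31 and 0.75 on FPKM), Ndufa10 (with limma 0.11 and 0.29 on CPM and 0.021 and 0.16 on FPKM) and Cox7c (0.041 under the exclusion rule on counts, 1.10 with the block, with limma 0.50 and 0.92 on CPM and 0.40 and 0.82 on FPKM, and -0.61 to 0.21 with each prefix left out); the cause was not tested. Sums of the same prefix were weakly alike: in 0 of 14 pairs did deviations correlate above 0.1 (-0.03 to 0.09, median 0.04). In 4 of the 14 pairs the Pyr←LP sum correlated best with the Pyr←ORBvl sum of its own prefix. Neurons with as few as 2410 counts limit what an absent gene means.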
